A study of Mus musculus with 12 samples.

Results

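The comparison described here is between splenic CD8 T cells of mice that lack Scap in T cells (Cd4-Cre/Scapfl/fl, KO) and of littermate controls (Cd4-Cre/Scap+/+, WT), both taken after 6 h of activation (T6). The differences rest on 6 of the 12 arrays in the series, 3 per genotype, chosen by their titles. The tests were fitted to all 12 arrays in 4 groups, so standard errors, p-values and calls also use the spread of the other 6. The comparison draws on the 34945 probe sets that carry a single gene symbol, out of 45101 on the array. Both genotypes carried the Cre recombinase, driven by the Cd4 promoter, so Cre itself was shared by KO and WT. The mice were male, and their age and the deleted part of Scap are not given in the labels. CD8 T cells were obtained from spleen with an enrichment kit and activated on plates coated with an antibody to CD3, with an antibody to CD28 in solution. The other 6 arrays hold unstimulated cells (T0) of the same genotypes, again 3 per genotype, and 3 mice are stated for each genotype, so the T0 and T6 arrays may share mice. PolyA RNA was labelled with biotin and hybridised to Affymetrix mouse arrays. Signals are linear intensities, with array medians between 61.3 and 74.5 at T6, and all differences below are KO minus WT on the log2(signal + 16) scale. Precision is limited by how many arrays there are: the median standard error (SE) of a difference was 0.19, and the median half-width of its 95% interval was 0.42.

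Scap is a sterol-sensing membrane protein of the endoplasmic reticulum. When membrane sterol is low it escorts the precursors of the SREBP transcription factors, encoded by Srebf1 and Srebf2, to the Golgi. There the proteases encoded by Mbtps1 and Mbtps2 release the active factors. When sterol is plentiful, the Insig proteins hold Scap and its cargo in the endoplasmic reticulum. SREBP-2 is known mainly for genes of sterol synthesis and uptake, and SREBP-1 for genes of fatty acid synthesis. Activated T cells enlarge and divide, and for this they build membrane lipid.

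The arrays were first checked for the gene that was deleted and for the labelled cell type. Scap had signals of 2193, 2117 and 2227 on the KO arrays, against 3004, 2987 and 3079 on the WT arrays. The groups did not overlap, but the difference of -0.47 ± 0.15 (SE of the fit, n = 3 each) did not pass the test (limma, Benjamini-Hochberg adjusted p = 0.212, 95% interval -0.79 to -0.14). That SE draws on the spread of all 12 arrays. At T6 alone the standard deviations of Scap were 0.04 in KO and 0.02 in WT. A second Scap probe set differed by -0.26 (adjusted p = 0.643). Where either probe set lies relative to the deleted part is not known here, so these values check the deletion only weakly. The CD8 coreceptor chain Cd8a was bright in both genotypes, at 6936, 5693 and 7404 on the KO arrays and 8604, 8120 and 8818 on the WT arrays. Correlations between arrays, over probe sets, were 0.970 to 0.980 within KO, 0.977 to 0.979 within WT and 0.965 to 0.977 between genotypes. KO replicate 2 stood apart on the first principal component of the 6 arrays (40.2% of the variance), at -58.1 with the other 5 between -9.2 and 35.4. Lists whose median, sign count or calls moved materially when that array was left out are given below with and without it. Over all genes the median was 0.04 with it and 0.05 without it.

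Of 24543 probe sets tested, 98 fell in KO cells (0.399%) and 19 rose (0.0774%), at a Benjamini-Hochberg adjusted p under 0.05 in limma. They belong to 104 genes, of which 86 fell and 18 rose. The median fall was -0.87 and the median rise 1.30, and the sizes ran between 0.54 and 3.15 (Ppcdc, dim in KO). Among the falls 35 were at least 2-fold, as were 13 of the rises. When each of the 13180 genes tested was represented by its brightest probe set, 19 genes fell (0.144%) and 11 rose (0.0835%). The 3 KO arrays lay wholly below the 3 WT arrays for 8.0% of these genes, and wholly above them for 10.8%. At an unadjusted p under 0.05 were 3.77% of these genes with KO lower and 7.40% with KO higher. These shares are the background for the gene lists below, together with the median difference of all genes, 0.04. The number of calls depended on the arrays in the fit. It was 25 without KO replicate 1, 17 without KO replicate 3, 27 without WT replicate 2 and 19 without WT replicate 3 (all at T6). In a fit of the 6 arrays at T6 alone limma called 0 probe sets, with 2823 at an unadjusted p under 0.05.

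**Figure D1:**
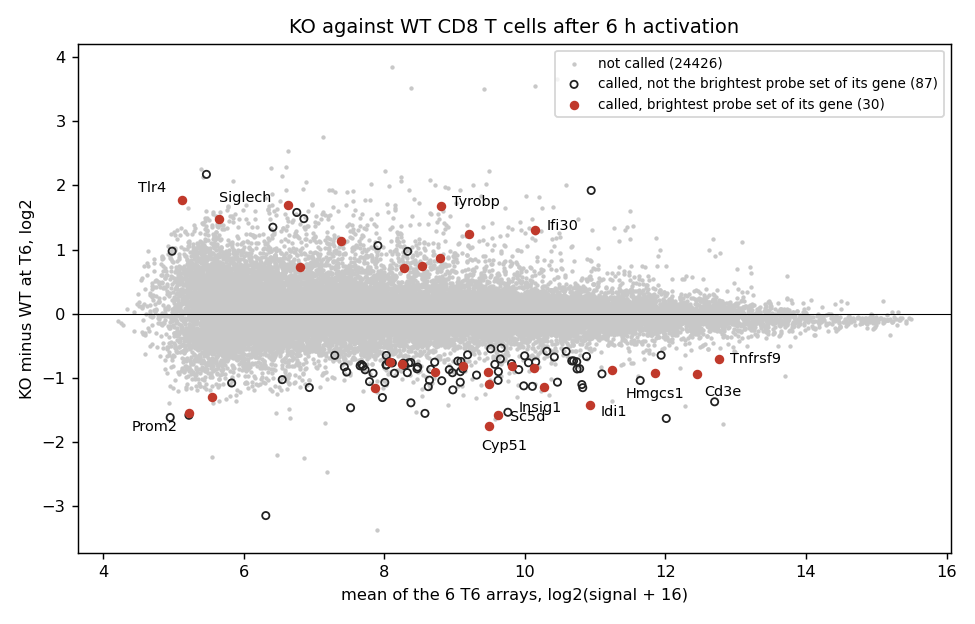
Log2 difference between KO and WT at T6 (vertical axis) against the mean log2(signal + 16) of each tested probe set (horizontal axis). Filled and open circles are the probe sets that passed the test, 98 lower and 19 higher in KO. Filled circles (30) are the brightest probe set of their gene and open circles (87) are not, and most falls are open circles.

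Genes of cholesterol synthesis were lower in KO cells from the first enzymes of the mevalonate pathway to the last steps of sterol ring modification. All 18 tested genes of the 21 listed had a negative difference, with a median of -0.55, and 6 of them fell. In 11 of the 18 the KO arrays lay wholly below the WT arrays, against 8.0% of all genes. The median was -0.62, with 17 of 18 negative and 8 called, when KO replicate 2 was left out. The largest fall was that of Cyp51, the sterol demethylase, to 29.7% of the WT level. Over all 39 tested probe sets of these genes, 39 were negative, 23 had KO wholly below WT and 10 fell. The adjusted p-values in the following paragraphs are from limma with Benjamini-Hochberg adjustment over all 24543 probe sets. Errors are the SE of the limma fit of all 12 arrays, for groups of n = 3 arrays in each genotype.

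In the mevalonate pathway, which makes isoprenoid units, 7 genes were tested, 2 fell and the median difference was -0.32 (3 fell and -0.49 without KO replicate 2). Hmgcs1, which condenses acetyl-CoA units into HMG-CoA, had signals of 2817, 2403 and 2786 on the KO arrays, against 5155, 4596 and 5408 on the WT arrays. It fell by 0.92 ± 0.12 (adjusted p = 0.0158), to 53.0% of WT, and the groups were well separated. A second Hmgcs1 probe set also fell (-1.04, adjusted p = 0.0291), and the remaining 3 differed by -0.73, -0.97 and -0.77 without passing. Idi1, the isomerase that produces dimethylallyl diphosphate, had 1032, 1732 and 887 in KO and 3252, 3048 and 3185 in WT (-1.43 ± 0.21, adjusted p = 0.0255). Its KO replicate 2 was the highest of the KO arrays and still far under every WT array. Fdps, the farnesyl diphosphate synthase, showed the same shape without passing: 740, 1250 and 783 in KO against 1475, 1476 and 1386 in WT (-0.68, adjusted p = 0.165). The differences of Ggps1, Mvd, Mvk and Pmvk were smaller, at -0.32, -0.26, -0.25 and -0.24, and none of these genes passed.

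From squalene to cholesterol 11 genes were tested, 4 fell and the median difference was -0.62. Cyp51 had 428, 437 and 281 in KO, against 1341, 1198 and 1371 in WT (-1.75 ± 0.18, adjusted p = 0.00648). Its second probe set gave 210, 220 and 192 in KO against 620, 559 and 753 in WT (-1.55, adjusted p = 0.00386). Both probe sets showed each KO array far below each WT array. Sc5d, the desaturase of a late sterol intermediate, had 417, 517 and 386 in KO on its brightest probe set, against 1448, 1400 and 1195 in WT (-1.59 ± 0.15, adjusted p = 0.00386), or 33.3% of the WT level. Hsd17b7, a ketoreductase acting after sterol demethylation, had 386, 450 and 371 in KO and 721, 781 and 665 in WT (-0.82, adjusted p = 0.0347). Another 2 of its probe sets fell (-1.07 and -0.75), and its remaining one differed by -0.35. Msmo1, the sterol methyl oxidase, had 823, 1005 and 671 in KO, against 1485, 1445 and 1554 in WT (-0.85, adjusted p = 0.0438). All 3 of these later enzymes had groups that did not overlap. Sqle, the squalene epoxidase, missed the threshold at 550, 872 and 427 in KO against 1488, 1371 and 1568 in WT (-1.30 ± 0.25, adjusted p = 0.0642). Lss and Dhcr7 differed by -0.62 (adjusted p = 0.206) and -0.48 (adjusted p = 0.217). Fdft1, Nsdhl, Ebp and Tm7sf2 differed by -0.27, -0.10, -0.07 and -0.03, so the steps of the pathway were not lowered evenly.

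**Figure D2:**
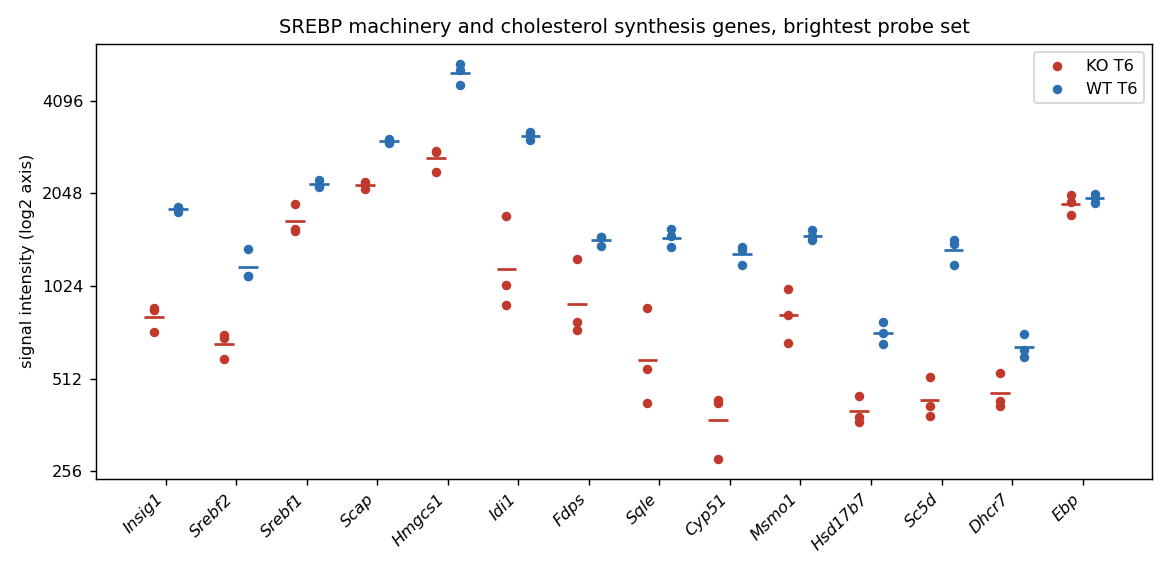
Signal intensity of each T6 array (log2 axis) for genes of SREBP processing and cholesterol synthesis, KO arrays left of WT arrays, with bars at the group means. Every KO array lies below every WT array for each gene shown except Ebp, and the gap is widest for Cyp51.

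Among the genes that process SREBP, 14 were tested, 2 fell and the median difference was 0.01. Insig1 alone fell when KO replicate 2 was left out. Insig1, which retains Scap in the endoplasmic reticulum and is itself an SREBP target, had 856, 867 and 729 in KO, against 1777, 1855 and 1837 in WT (-1.15 ± 0.11, adjusted p = 0.00386). This is 45.2% of the WT level, with little spread within either genotype. Srebf2, which encodes SREBP-2, had 712, 596 and 695 in KO and 1106, 1108 and 1349 in WT (-0.81 ± 0.13, adjusted p = 0.0355), while a second Srebf2 probe set differed by -0.20. Srebf1 had 1543, 1894 and 1573 in KO and 2170, 2262 and 2149 in WT (-0.40, adjusted p = 0.149). The proteases Mbtps1 and Mbtps2 differed by 0.09 and 0.02, Insig2 by -0.04, and Sec24d, a coat subunit of vesicles that leave the endoplasmic reticulum, by 0.35. Of 9 sterol uptake and trafficking genes tested none passed in limma, and 2 had an unadjusted p under 0.05. Tmem97, a membrane protein of sterol trafficking, had 275, 272 and 265 in KO against 478, 372 and 460 in WT (-0.65, adjusted p = 0.315), and Stard4, a carrier of sterol between membranes, differed by -0.45. The lysosomal cholesterol exporters Npc1 and Npc2 differed by -0.20 and -0.09, and the lipoprotein receptor Scarb1 by 0.32.

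**Figure D3:**
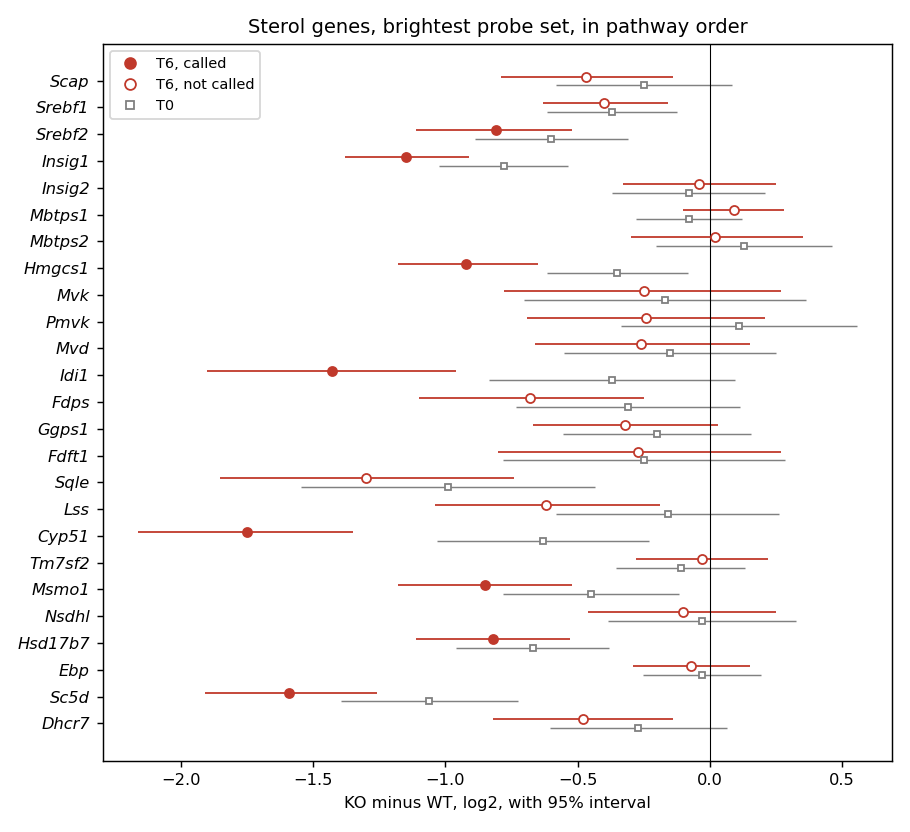
Log2 difference between KO and WT, each gene by its brightest probe set, with 95% intervals as bars, for 7 SREBP processing genes and the 18 tested cholesterol synthesis genes in pathway order. Circles are T6, filled where the gene passed the test, and grey squares are T0. All 18 cholesterol synthesis genes lie at or below -0.03 at T6, and Insig2, Mbtps1 and Mbtps2 lie near 0.

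Among these lists the calls of Cyp51, Insig1 and Sc5d were the least dependent on the arrays used. Each was called in every alternative fit that left out an array, and lost its call in 3 alternatives: the fit of only the 6 arrays at T6 and the 2 fits with a covariate. Over all alternatives the difference of Cyp51 lay between -1.87 and -1.5, that of Insig1 between -1.27 and -1.07, and that of Sc5d between -1.74 and -0.94. The smallest size of Sc5d, -0.94, was that of the mean of its probe sets, where its call was kept. Elsewhere among its probe sets Sc5d thus differed less than on the brightest, the one given above. Idi1 lay between -1.71 and -1.23 and lost its call in 8 of 27 alternatives, and Hmgcs1 lay between -0.98 and -0.84 and lost it in 6 of 27. Hsd17b7 (brightest probe set), Msmo1 and Srebf2 lost their calls in 15, 19 and 17 of 27, with differences that stayed between -0.99 and -0.51.

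The promoters of the called sterol genes are shown because SREBP factors are known to bind sterol regulatory elements near gene starts, usually beside a box for the factor NF-Y. Windows of 300 bases, from 250 before to 50 after the start, came from RefSeq (GRCm38.p6), and 26 of 32 sterol synthesis and SREBP processing genes had at least 1. Each was searched on both strands for TCACNCCAC, a sterol regulatory element core, and for CCAAT, the NF-Y box. The 6 called genes with the smallest p are printed below in the direction of transcription, with the matches to either motif in capitals.
Insig1, chr5:28071162-28071461, plus strand: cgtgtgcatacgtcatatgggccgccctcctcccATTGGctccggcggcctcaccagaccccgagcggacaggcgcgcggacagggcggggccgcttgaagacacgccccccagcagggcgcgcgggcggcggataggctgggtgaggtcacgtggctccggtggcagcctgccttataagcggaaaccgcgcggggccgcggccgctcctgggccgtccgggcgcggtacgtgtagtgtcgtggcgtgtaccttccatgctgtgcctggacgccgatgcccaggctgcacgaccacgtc
Sc5d, chr9:42264251-42264550, minus strand: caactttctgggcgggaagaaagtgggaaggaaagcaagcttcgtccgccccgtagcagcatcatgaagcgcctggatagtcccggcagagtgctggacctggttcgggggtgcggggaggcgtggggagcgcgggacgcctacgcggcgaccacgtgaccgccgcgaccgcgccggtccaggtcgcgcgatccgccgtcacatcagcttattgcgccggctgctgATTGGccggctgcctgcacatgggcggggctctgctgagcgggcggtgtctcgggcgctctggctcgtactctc
Cyp51, chr5:4104648-4104947, minus strand: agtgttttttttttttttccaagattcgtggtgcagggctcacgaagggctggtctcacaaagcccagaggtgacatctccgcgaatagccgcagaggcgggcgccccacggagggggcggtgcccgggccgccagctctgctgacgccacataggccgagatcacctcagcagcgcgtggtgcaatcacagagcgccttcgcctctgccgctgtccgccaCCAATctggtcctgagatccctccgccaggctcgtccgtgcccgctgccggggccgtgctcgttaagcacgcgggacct
Hmgcs1, chr13:119690101-119690400, plus strand: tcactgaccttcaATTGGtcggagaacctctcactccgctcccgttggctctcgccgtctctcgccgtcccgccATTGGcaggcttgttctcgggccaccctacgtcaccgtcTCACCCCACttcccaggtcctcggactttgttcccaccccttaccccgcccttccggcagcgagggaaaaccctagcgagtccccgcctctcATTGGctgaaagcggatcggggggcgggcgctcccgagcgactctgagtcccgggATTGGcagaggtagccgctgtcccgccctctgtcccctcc
Idi1, chr13:8885356-8885655, plus strand: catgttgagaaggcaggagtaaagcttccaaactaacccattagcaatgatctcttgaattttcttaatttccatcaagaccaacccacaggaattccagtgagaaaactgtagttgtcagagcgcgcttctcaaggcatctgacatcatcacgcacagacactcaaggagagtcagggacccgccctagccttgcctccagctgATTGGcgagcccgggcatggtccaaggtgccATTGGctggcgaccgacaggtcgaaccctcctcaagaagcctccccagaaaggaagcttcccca
Hsd17b7, chr1:169969156-169969455, minus strand: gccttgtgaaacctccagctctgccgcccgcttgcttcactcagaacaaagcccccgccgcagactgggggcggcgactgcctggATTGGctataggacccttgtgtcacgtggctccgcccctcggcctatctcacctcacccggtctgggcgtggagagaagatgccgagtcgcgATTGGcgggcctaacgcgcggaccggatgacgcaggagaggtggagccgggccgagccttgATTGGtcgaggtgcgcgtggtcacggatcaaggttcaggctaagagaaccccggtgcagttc
CCAAT occurred in the windows of 8 of 8 called sterol genes and in 24 of 36 windows of all 26 genes (66.7%), against 37.4% of 32851 windows of all genes. TCACNCCAC occurred in 2 of the 36 windows (5.56%), against 1.24% of all windows, and among the 8 called genes only in that of Hmgcs1, whose window is printed above. No 2 matches of the different motifs overlapped in the printed windows. A match is a description of these letters, and a window without one says nothing about the factor.

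Fatty acid synthesis genes are textbook targets of SREBP-1. Of 20 tested limma called 0, 6 had an unadjusted p under 0.05, 3 in each direction, and the median difference was 0.04. When KO replicate 2 was left out the median was -0.10, with 14 of 20 negative against 9 with that array. Fasn, the fatty acid synthase, had 3682, 2601 and 3442 in KO, against 3850, 3838 and 3789 in WT (-0.25, adjusted p = 0.451). Acaca, which makes malonyl-CoA, differed by -0.33, Acly, the citrate lyase, by -0.11, and the elongase Elovl5 by -0.37. Aacs, which activates acetoacetate for lipid synthesis, came nearest to the threshold (-0.39, adjusted p = 0.118). Some members leaned the other way: Acss2, an acetyl-CoA synthetase, differed by 0.48 and Mid1ip1, an activator of acetyl-CoA carboxylase, by 0.51. The desaturase Scd1 had 490, 423 and 158 in KO against 163, 72.7 and 94.6 in WT, a difference of 1.49 with overlapping groups. In acyl activation and glycerolipid synthesis 0 of 17 tested genes passed, with 3 at an unadjusted p under 0.05. The acyltransferase Lpcat1, the phosphatidate phosphatase Lpin2 and the acyl-CoA synthetase Acsl3 differed by 0.78, 0.61 and -0.44. LXR is the receptor for oxidised sterols, and of 10 receptor and target genes 0 passed, 1 of them at an unadjusted p under 0.05. The sterol exporters Abca1 and Abcg1 differed by 0.17 and -0.26, and Apoe, an apolipoprotein, by 0.51.

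All 12 tested genes of the T cell receptor complex and its coreceptors had a negative difference, with a median of -0.24, and only Cd3e fell. Without KO replicate 2 the median was -0.15, 10 of the 12 were negative and 0 passed. Cd3e, a signalling chain of the complex, had 4557, 3897 and 3650 in KO, against 6854, 7148 and 9359 in WT (-0.94 ± 0.15, adjusted p = 0.0296). Its difference lay between -1.03 and -0.80 over 26 alternatives and lost its call in 15, among them those without any 1 of the 3 KO arrays at T6, without WT replicate 2 or without WT replicate 3. Cd3g had 7548, 5481 and 7213 in KO, against 9072, 9876 and 9694 in WT (-0.51, adjusted p = 0.139). Cd8a and Cd8b1 differed by -0.36 (adjusted p = 0.276) and -0.27. In 4 of the 12 genes KO lay wholly below WT, against 8.0% of all genes. Fewer T cells in a sample and less RNA of these genes per cell cannot be told apart in bulk RNA. In proximal T cell receptor signalling 15 of 18 genes were negative with a median of -0.18, 0 passed and 2 had an unadjusted p under 0.05. The median was -0.07, with 12 of 18 negative, in the absence of KO replicate 2. Within the list the kinase Zap70, the adaptor Lat and the ubiquitin ligase Cblb differed by -0.33, -0.26 and -0.33.

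None of 6 genes taken as readouts of activation passed the test in limma. The early surface marker Cd69 had 6619, 5032 and 5736 in KO, against 6777, 6855 and 6406 in WT, a difference of -0.21 (95% interval -0.49 to 0.07). The cytokine gene Ifng had 4017, 3714 and 5554 in KO and 4770, 5300 and 3100 in WT (0.03, 95% interval -0.46 to 0.51). Il2 had 1157, 624 and 1203 in KO and 469, 767 and 785 in WT (0.53, 95% interval -0.23 to 1.29). The Cd69 groups overlapped at their edge and those of both cytokines overlapped widely, and each interval holds differences in both directions. Il2ra, the high-affinity receptor chain for that cytokine, differed by -0.07 (95% interval -0.45 to 0.32), Myc, a growth regulator, by -0.16 (-0.45 to 0.13) and Tnf by 0.12 (-0.39 to 0.63).

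Tnfrsf9, which encodes the costimulatory receptor 4-1BB, was the only one of 25 activation receptors that fell, close to the threshold. It had 6137, 5171 and 5031 in KO, against 8960, 9306 and 8320 in WT (-0.70 ± 0.12, adjusted p = 0.0454), and the groups did not overlap. This call was lost in 21 of 27 alternatives, among them those without any 1 of the 6 arrays at T6, and the difference lay between -0.79 and -0.52. The adhesion receptor Cd44 and the costimulatory receptor Cd27 differed by 0.72 (adjusted p = 0.143) and -0.33. Of 20 immediate early transcription factors 0 passed, 3 had an unadjusted p under 0.05 and the median was 0.05. Nfatc1, a factor activated by calcium signalling, had 3301, 2781 and 3148 in KO and 3988, 4504 and 4516 in WT (-0.49, adjusted p = 0.0945). Egr1 and Irf4 both differed by -0.31 and Batf by 0.45. Of 20 cytokine and chemokine genes 0 passed, 1 had an unadjusted p under 0.05 and the median was -0.02, with Tgfb1 at -0.40 and Ccl4 at -0.27. The medians of the NF-kB and MAP kinase feedback lists were 0.04 and -0.06, and 0 of their 12 and 17 tested members passed, with 0 at an unadjusted p under 0.05. Without KO replicate 2 the medians of the immediate early, cytokine, NF-kB and MAP kinase feedback lists were 0.18, 0.11, 0.15 and 0.07, and 1 of 12 NF-kB genes was negative against 5 with that array. Of 23 effector and memory genes 0 passed and 7 had an unadjusted p under 0.05. Of these 2 were lower and 5 higher in KO, against 3.77% and 7.40% of all genes. The pore-forming protein gene Prf1 had 694, 530 and 652 in KO and 883, 1549 and 1259 in WT (-0.93, adjusted p = 0.0957), while the granule protease Gzmb differed by 0.73 and the repressor Prdm1 by 0.63.

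Ribosome assembly genes leaned one way by a small amount. All 29 tested were negative, and in 14 KO lay wholly below WT, against 8.0% of all genes. The median was only -0.18, 0 passed and 6 had an unadjusted p under 0.05. Nop58, a core protein of small nucleolar particles, had 4895, 5566 and 4912 in KO, against 7253, 7670 and 7648 in WT (-0.55, adjusted p = 0.106). Polr1a and Polr1b, subunits of the polymerase that makes ribosomal RNA, differed by -0.84 (adjusted p = 0.127) and -0.47, and Nolc1 and Ddx21, nucleolar proteins, by -0.42 and -0.30. Without KO replicate 2 the median of the list was -0.10, with 23 of 29 negative. Nucleotide and polyamine synthesis had 16 of 18 genes negative, a median of -0.13 and 0 calls, with 2 at an unadjusted p under 0.05. Pfas of purine synthesis and Umps of pyrimidine synthesis differed by -0.64 and -0.33. The median of 17 glycolysis genes was 0.00, with 0 calls, 1 at an unadjusted p under 0.05, and the kinase Pfkm highest at 0.70.

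Cell cycle and integrated stress response lists were highest on KO replicate 2. Part of the difference of the mitosis and stress response lists was present without it. The mean log2 level of the 19 mitosis genes was 9.49, 11.15 and 9.38 on the KO arrays, against 8.88, 9.54 and 8.82 on the WT arrays. KO replicate 2 thus stood far above all others, and WT replicate 2 was the highest of its own group. The median difference of the list was 0.88, with all 19 positive and 0 called (2 at an unadjusted p under 0.05). In 5 genes KO lay wholly above WT, against 10.8% of all genes. Without KO replicate 2 the median was 0.37, with all 19 still positive. For 20 genes of S phase and DNA replication the level was 10.30, 11.62 and 10.38 in KO and 10.11, 10.45 and 10.21 in WT. The median was 0.40 with that array and 0.05 without it, when 8 of the 20 were negative. The median of all genes was also 0.05 without it. The integrated stress response list, which holds targets of the factor ATF4, had 11 of 13 genes positive, a median of 0.46 and 0 calls. This list had 5 genes higher in KO at an unadjusted p under 0.05, against 7.40% of all genes. It had 4 with KO wholly above WT, against 10.8% of all genes. Its mean level was 9.63, 10.23 and 9.28 in KO and 9.36, 9.26 and 9.07 in WT, so KO replicate 3 lay within the WT range. Without KO replicate 2 its median was 0.26, with 3 of 13 negative. Ddit3, a stress-induced factor, had 1057, 2253 and 777 in KO and 658, 642 and 787 in WT, and Ppp1r15a, a phosphatase subunit, had 1725, 4058 and 1521 in KO and 1382, 1298 and 1063 in WT. In both the highest value came from KO replicate 2, and Ddit3 in KO replicate 3 lay within the WT range. Of 20 endoplasmic reticulum chaperone and unfolded protein genes 0 passed, 4 had an unadjusted p under 0.05 and the median was -0.01. The sensor Ern1 differed by 0.74 (adjusted p = 0.126) and the chaperone genes Dnajc3 and Dnajb11 by -0.43 and -0.33. In the Bcl2 family 11 of 12 genes were positive with a median of 0.15, and for 23 interferon-induced genes the median was -0.08 (-0.20 without KO replicate 2). Neither list held a call, with 2 and 0 genes at an unadjusted p under 0.05.

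Of the genes that rose 4 were on the lists of myeloid and dendritic cell markers. Tyrobp, a signalling adaptor of myeloid and natural killer cells, had 1042, 653 and 708 in KO, against 248, 298 and 171 in WT (1.68 ± 0.25, adjusted p = 0.0255). The adhesion molecule Vcam1 had 196, 280 and 225 in KO and 98, 108 and 87.1 in WT (1.13, adjusted p = 0.024), and the endotoxin receptor Tlr4 had 44.1, 46.0 and 54.9 in KO and 1.5, 4.64 and 2.16 in WT (1.78, adjusted p = 0.0149). The Tlr4 values are dim in KO and near 0 in WT, so its size is set by the added constant: it was 3.79 with 1 added and 0.75 with 64 added. Siglech, a surface lectin of plasmacytoid dendritic cells, had 207, 136 and 148 in KO and 35.5, 33.2 and 49.6 in WT (1.69, adjusted p = 0.0405). Each of these genes had KO wholly above WT. One probe set of H2-Aa, a class II histocompatibility chain, had 4531, 3558 and 3456 in KO and 1806, 836 and 652 in WT (1.92, adjusted p = 0.0405). Ifi30, a thiol reductase of antigen processing, had 2198, 1805 and 1399 in KO and 963, 632 and 582 in WT (1.30, adjusted p = 0.0429). The calls of Siglech, H2-Aa and Ifi30 were lost in 16 alternatives each, those of Tyrobp and Tlr4 in 6 and that of Vcam1 in 7, with the direction kept. Tcf4, a factor of plasmacytoid dendritic cells and B cells, rose on 2 probe sets (1.35 and 1.06). Grn and Adgre4, both known from macrophages, rose by 0.97 each, and Marcks, an actin-linked kinase substrate, by 1.24. Marcks lost its call in 21 of 27 alternatives. The calls of Tcf4, Grn and Adgre4 were on probe sets other than the brightest, and were lost when a gene's probe sets were averaged. Adgre4 was near background in WT, and its difference lay between 0.39 and 1.97 over the alternatives. Larger differences that did not pass included the plasma cell gene Mzb1 (1.84), the immunoglobulin gene Ighg3 (1.83), the macrophage pore protein Mpeg1 (1.64) and the chemokine Ccl22 (1.73).

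B cell, myeloid and class II lists were higher in KO over most of their members, and the dendritic list was mixed. For 15 tested B cell markers the mean log2 level was 8.80, 7.63 and 7.62 on the KO arrays and 7.44, 6.62 and 6.69 on the WT arrays. All 15 were positive, 8 had KO wholly above WT (10.8% of all genes did), and the median difference was 1.01 with 0 calls. At an unadjusted p under 0.05 were 8 of the 15, against 7.40% of all genes. Their summed signal was 12652, 5750 and 6607 in KO and 4740, 3806 and 4778 in WT. The defining B cell gene Ms4a1 had 1946, 641 and 451 in KO and 403, 133 and 133 in WT, while the B cell factor Pax5 was dim in both, at 43.2, 10.2 and 43.0 in KO and 34.5, 28.1 and 10.2 in WT. Of 21 myeloid markers 20 were positive, 9 had KO wholly above WT and 3 rose, with a median of 0.89, and their summed signal was 19687, 14249 and 14129 in KO and 11257, 12458 and 10382 in WT. The 8 genes of class II presentation had a median of 1.24, and Cd74 and H2-Eb1, at 1.60 and 1.48, did not pass on their brightest probe sets. The 7 dendritic cell markers had mean levels of 7.40, 7.23 and 7.39 in KO and 7.03, 6.76 and 6.93 in WT, yet 3 of the 7 were negative and their summed signal was lower in KO on average, at 1830, 2143 and 1735 in KO and 1942, 2414 and 2613 in WT. The 3 natural killer and 4 CD4 T cell markers tested had medians of 0.13 and 0.41 (0.22 for the CD4 T cell list without KO replicate 2), with 0 calls. Cd4, the natural killer receptor Ncr1 and the myeloid integrin Itgam did not pass the filter on low signal.

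**Figure D4:**
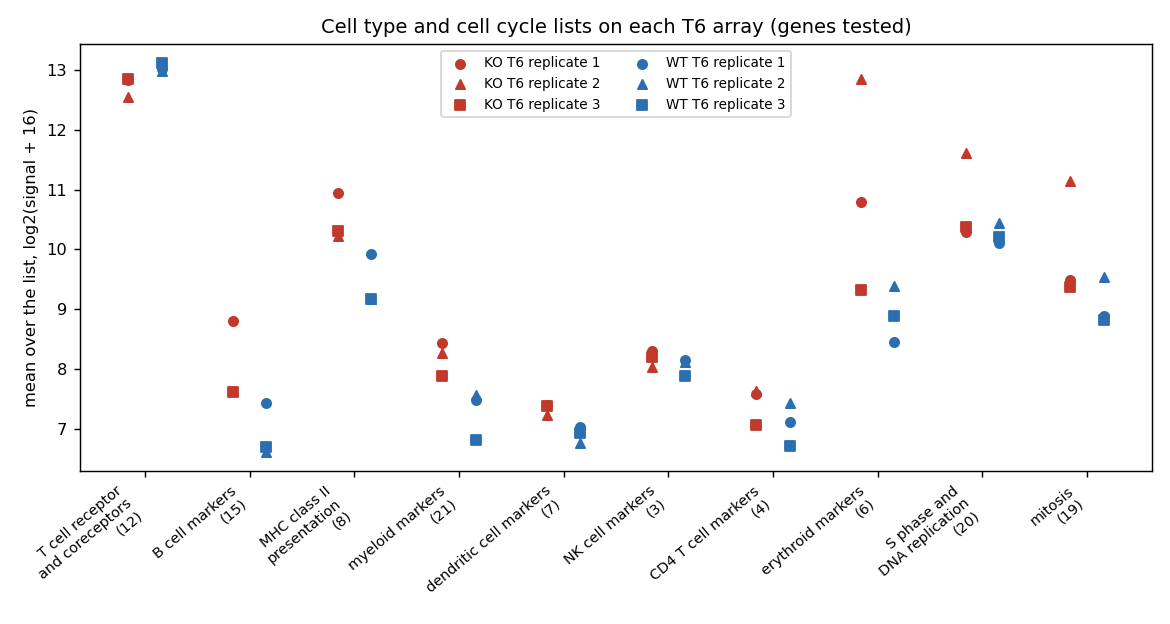
Mean log2(signal + 16) of the tested genes in each list on each array at T6, KO arrays left of WT arrays. Symbols mark the replicate number and the number of genes stands under each list. The mean log2 levels of the B cell, class II, myeloid and dendritic lists were higher on every KO array than on every WT array, and the mitosis, S phase and erythroid lists were highest on KO replicate 2.

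Erythroid markers were highest on KO replicate 2. The mean log2 level of the 6 tested was 10.79, 12.85 and 9.33 in KO and 8.46, 9.39 and 8.88 in WT, and the median difference was 1.97, or 1.01 without that array. Slc4a1, the red cell anion exchanger, had 3705, 14178 and 1074 in KO and 197, 447 and 349 in WT. The groups were apart, though the KO values were widely spread. With the mean of B cell and myeloid markers as a covariate, limma called 0 probe sets, with 2004 at an unadjusted p under 0.05. In that fit Cyp51 was at -1.87, Insig1 at -1.27, Sc5d at -1.74 and Hmgcs1 at -0.98, and the median of the cholesterol synthesis genes was -0.51. The part of other cell types in the remaining differences was not tested.

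The other 8 genes that rose are not on the marker lists or named above. The mitochondrial carrier Slc25a24 had 576, 620 and 562 in KO and 325, 337 and 277 in WT (0.88, adjusted p = 0.046). Ramp1, a receptor activity modifying protein, had 489, 428 and 473 in KO and 272, 289 and 253 in WT (0.74), and Mex3b, an RNA-binding protein gene, had 443, 345 and 363 in KO and 224, 235 and 218 in WT (0.72). All had narrow groups that did not overlap. Their calls were lost in 20, 18 and 20 of 27 alternatives, among them those without any 1 of the 6 arrays at T6. Cadm1, an adhesion molecule, rose by 1.58, and Gpaa1, of the machinery that attaches lipid anchors to proteins, by 1.48. Sash1, a scaffold protein, rose by 1.47, the kinase Mast4 by 0.73 and 4930447F24Rik by 2.17. Cadm1, Gpaa1 and 4930447F24Rik were called on a probe set other than the brightest, and lost the call when a gene's probe sets were averaged. In WT 4930447F24Rik was near background (5.84, 5.07 and 3.76), and its difference lay between 1.05 and 3.75 over the alternatives. Sash1 was dim too, between 0.75 and 2.26, and lost its call in 21 of 27 alternatives.

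Most falls were seen on 1 probe set of a gene and not on its brightest one. Of the 98 falls 79 were on other probe sets, which is 0.695% of the 11363 such probe sets tested, against 0.144% of brightest ones. The rises showed no such tilt, at 0.07% against 0.083%. The 79 belong to 70 genes, for which the median difference was -0.87 on the called probe set and -0.12 on the brightest one. In 52 of the 70 the brightest probe set lay within 0.25 of 0, and in 3 it also fell: Cyp51, Hsd17b7 and Hmgcs1. Usp34, a deubiquitinase, had 266, 245 and 241 in KO, against 594, 585 and 534 in WT on the called probe set (-1.14), and differed by -0.12 on the brightest. Smarca2, a chromatin remodelling ATPase, differed by -1.06 on one and -0.05 on the other. Btg1, an inhibitor of proliferation, had 1152, 1333 and 1124 in KO and 2370, 3065 and 2673 in WT on the called probe set (-1.15), with -0.24 on the brightest. The same contrast held for the acetyltransferase Crebbp (-0.74 and -0.05), the remodeller Atrx (-0.87 and 0.11), the kinases Jak1 (-0.94 and -0.19) and Gsk3b (-0.90 and -0.24), and Kmt2e (-0.67 and 0.18). For such genes no statement on the gene as a whole follows. In Malat1, a nuclear noncoding RNA, 2 probe sets fell by 1.37 and 1.63 and the brightest differed by -0.96. Thoc2, of RNA export, had like values on the called and the brightest probe set (-0.59 and -0.58). Among genes of RNA processing, Rbm25 (-1.47 and -0.13), Aqr (-1.58 and -0.18), Srrm1 (-0.96 and 0.16), Rbm5 (-0.77 and -0.03) and Hnrnpr (-0.87 and 0.11) differed on the called probe set far more than on the brightest. The chromatin genes Chd4 (-0.78 and -0.29), Bptf (-0.77 and 0.04) and Baz2a (-0.91 and 0.21) did likewise. So did Ms4a4b (-1.07 and -0.12), Gimap6 (-0.75 and -0.28) and Cd84 (-0.87 and -0.11), which are expressed by lymphocytes, and Hsd17b12 (-0.58 and -0.19), a reductase of fatty acid elongation. Klf6 and Tle3, transcription regulators, had the called probe set at -1.12 and -1.39, and on the brightest, at -0.48 and -0.35, KO also lay wholly below WT without passing.

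**Figure D5:**
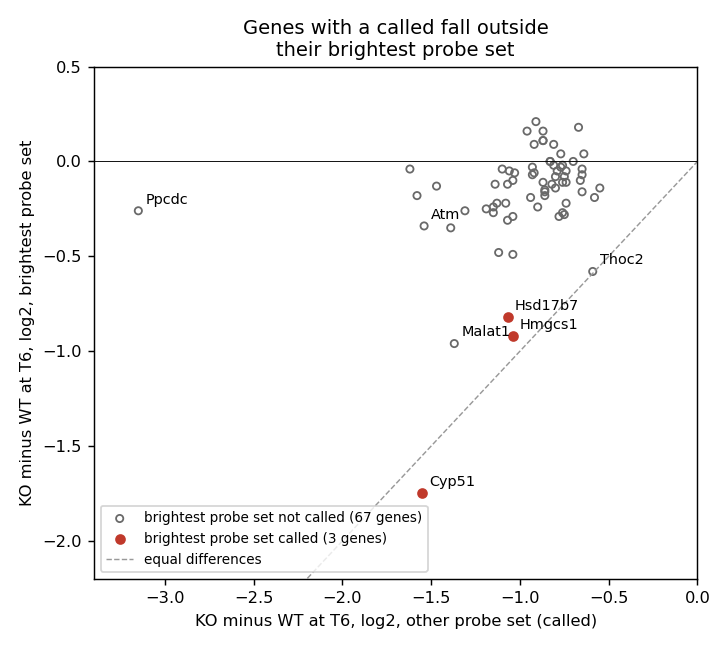
Log2 difference between KO and WT at T6 on the brightest probe set (vertical axis) against that on the called probe set of the same gene (horizontal axis), for the 70 genes with a fall on a probe set other than the brightest. The dashed line marks equal differences. Most points lie near 0 on the vertical axis, while the 3 filled points, Cyp51, Hsd17b7 and Hmgcs1, are low on both.

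A measure of RNA integrity moved with genotype at T6. The Actb control probe sets, which read opposite ends of one transcript, differed (3′ minus 5′, log2) by 0.71, 0.62 and 0.79 on the KO arrays and by 0.52, 0.45 and 0.54 on the WT arrays. The same measure for Gapdh was 0.36, 0.15 and 0.33 in KO and 0.17, 0.08 and 0.12 in WT. For Actb every KO array lay above every WT array, and for Gapdh KO replicate 2 lay within the WT range. At T0 the Actb measure was 0.51, 0.34 and 0.23 in KO and 0.33, 0.22 and 0.37 in WT, with overlapping groups. With the Actb measure as a covariate, an alternative chosen after seeing the data, limma called 0 probe sets, with 2093 at an unadjusted p under 0.05. In that fit Cyp51 was at -1.5, Insig1 at -1.11, Sc5d at -1.5 and Idi1 at -1.30, and the median of the cholesterol synthesis genes was -0.45. The part of this measure in the other falls was not tested.

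Of the genes that fell on their brightest probe set, 11 were outside the sterol lists. Beside Cd3e and Tnfrsf9 they include Zc3h13 (-0.90), a zinc finger protein of the RNA methylation complex, Ubxn4 (-0.87), a protein of endoplasmic reticulum degradation, and Ankrd52 (-0.76), a phosphatase subunit. Zc3h13 lost its call in 4 of 27 alternatives, Ubxn4 in 19 and Ankrd52 in 18, and the difference of Ubxn4 lay between -1.0 and -0.28. Prom2, a membrane glycoprotein, fell near background, with differences between -2.86 and -0.68 over the alternatives. The rest are Pxylp1, Pik3r4, Bcl9l and 9230112J17Rik, described with chromosome 9 below, and Mir1949, a microRNA locus.

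Scap lies on chromosome 9, and genes of that chromosome were called more often than others. Of 1333 probe sets tested there 19 were called (1.43%), against 0.422% elsewhere, and 17 of the 19 fell. They include the sterol gene Sc5d and Cd3e, and Cd3g lies there too. Ppcdc, an enzyme of coenzyme A synthesis, had 3.55, 20.9 and 10.5 in KO, against 231, 340 and 135 in WT on the called probe set (-3.15). The KO signals are near background, so that size depends on the added constant, and it lay between -4.40 and -1.20 over 25 alternatives, 22 of which kept the call. Its other 2 probe sets differed by -0.26 and -0.19. Pxylp1, a xylose phosphatase, had 156, 130 and 137 in KO and 314, 359 and 333 in WT (-1.16). Pik3r4, a regulatory subunit of a lipid kinase, had 404, 550 and 476 in KO and 1053, 1215 and 862 in WT (-1.10). Each of these had groups far apart, though Pxylp1 and Pik3r4 lost their calls in 9 and 19 of 26 alternatives. Atm, the DNA damage kinase, had 521, 533 and 431 in KO and 1581, 1724 and 1140 in WT on the called probe set (-1.54), with -0.34 on its brightest. The cofactor Bcl9l and 9230112J17Rik fell by 0.91 and 1.30. Bcl9l lost its call in 16 of 26 alternatives, with differences between -1.04 and -0.21, and 9230112J17Rik lost its call in 8 of 25. Alg9, a mannosyltransferase, missed the threshold (-0.57, adjusted p = 0.0551), and so did Rps25, a ribosomal protein gene (-1.36, adjusted p = 0.065). With chromosome 9 left out 84 probe sets were called (72 lower, 12 higher), and the cholesterol synthesis median was -0.48. The part of chromosomal position in these values was not tested.

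The same genotype contrast in unstimulated cells gave 4 called probe sets, and 1 of the 117 was among them, that of Pxylp1. The sign at T0 was the same for 104 of the 117, on arrays that may come from the same mice. Of the 98 falls 57 also had KO wholly below WT at T0, against 9.57% of all probe sets tested, and of the 19 rises 14 had KO wholly above WT, against 7.03%. Sc5d had 388, 363 and 417 in unstimulated KO cells, against 956, 709 and 835 in unstimulated WT cells (-1.06), and Insig1 had 736, 715 and 731 in KO and 1419, 1179 and 1195 in WT (-0.78). Cyp51 had 160, 171 and 219 in KO and 338, 265 and 274 in WT at T0 (-0.63), where at T6 the difference was -1.75. Idi1 had 657, 756 and 572 in KO and 865, 793 and 901 in WT at T0 (-0.37), where at T6 it was -1.43. The cholesterol synthesis median was -0.26 at T0 and -0.55 at T6. Tnfrsf9, at 445, 559 and 589 in KO and 593, 577 and 587 in WT, had overlapping groups at T0 (-0.15). The test of the difference between the T6 and T0 contrasts called 0 probe sets in limma, with 1296 of all 24543 at an unadjusted p under 0.05, and the smallest adjusted p among the 117 was 0.473. For Cyp51 and Idi1 that difference was -1.12 and -1.06. No probe set passed the test for a genotype difference at T6 unlike that at T0.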

How the data were processed

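RNA of 12 samples was hybridised to 1 Affymetrix array each, 3 per genotype and time, and the values used are the linear signal intensities deposited by the authors, made with GCOS per the submitters' processing notes (version not stated). Background removal and probe summary are not given in the sources used here. The mean intensity over percentiles 2 to 98, averaged over the 12 arrays and rounded, was 500.0. Values of single arrays are not given here, so this does not show how each array was scaled. Gene symbols came from the platform annotation of 2016: 34945 probe sets carry 1 symbol (18193 genes), 932 several and 9160 none, and 64 are controls.

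Signals were taken as log2(signal + 16), which understates changes of dim genes. Probe sets above percentile 40 of their array on at least 3 of 12 arrays were kept. The model, fitted by the lmFit and eBayes functions of limma (3.58.1; R 4.3.3), had a coefficient for each of 4 groups and 8 residual degrees of freedom, with two-sided tests, and p-values were adjusted by Benjamini-Hochberg over all 24543. The labels call the arrays of a group biological replicates. The fit was tested on simulated data. A gene stands in a list by its probe set of highest mean. Named are Scap, genes with a called probe set, up to 15 rises and 15 falls of largest difference, members of the sterol, fatty acid, acyl and other-cell lists, up to 6 members of every other list and up to 8 genes of chromosome 9 by smallest p, and 6 activation readouts. Not all are printed. The comparison, lists and rule were chosen with earlier results of these data known. Alternatives changed the added constant, filter, scaling, summary by gene, arrays and covariates (36 B cell and myeloid markers, or the Actb control).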

Additional observations from a re-analysis of the deposited data

Results flagged for a closer look

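Probe sets outside the comparison, with no gene symbol or with several, were run in an added fit of all 30083 probe sets that are not controls and pass the filter. Of them 29 passed an adjusted p under 0.05 (limma, Benjamini-Hochberg). The largest fall among them, on an unnamed probe set, had signals of 38.8, 42.5 and 23.0 in KO, against 438, 384 and 237 in WT, a difference of -2.84. The next 2 were -2.43 and -2.32, and the largest rises were 2.94 and 1.87.

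Zfp638, a zinc finger protein, fell at T6 on 1 probe set, with signals of 297, 244 and 365 in KO, against 719, 606 and 579 in WT (-1.04). In unstimulated cells the same probe set had 765, 695 and 1063 in KO, against 676, 646 and 590 in WT, so the KO arrays lay above the WT arrays (0.37). The difference between the 2 contrasts was -1.41 and did not pass the test.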

How the results depend on the processing

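The median difference of the cholesterol synthesis genes, -0.55, lay between -0.59 and -0.45 in every alternative that kept all arrays, between -0.62 and -0.47 when single arrays were left out, and kept its sign throughout. The count of 117 probe sets was less stable. It was 41 without a filter, 232 with the filter at percentile 60, 248 with array weights, 13 with 1 probe set per gene and 13 with probe sets averaged per gene. It was 0 with only the 6 arrays at T6, 0 with the covariate for B cell and myeloid markers and 0 with the Actb covariate. Leaving out single arrays gave 17 to 97 calls. The count was 113 and 138 with 1 or 64 added to the signal, 131 with median centring and 135 with quantile normalization. The fewer genes tested or arrays fitted are part of some of these settings by construction, and otherwise the cause was not tested. The test of T6 against T0 gave 0 to 2 calls when single arrays were left out and 1 over all probe sets that are not controls. The deviations of same-numbered KO and WT arrays at T6 correlated at 0.05, 0.26 and 0.10, and those of differently numbered arrays at -0.2 to 0.1. Whether replicate numbers pair the samples was not tested, and pairing of T0 with T6 arrays was not examined. The main fit took all arrays as independent. With a replicate block 133 probe sets were called (86 lower, 47 higher), 81 of them among the 117, the cholesterol median was -0.55 and the test of T6 against T0 gave 0. Of 3853 recomputed values of named probe sets 2383 stayed on their side of the threshold, 1462 lost their call and 8 gained one. Direction was compared only where the main or the alternative fit called the probe set, and 0 of those values reversed. Some uncalled probe sets changed sign, such as those of Nsdhl (-0.27 to 0.06) and Tnf (-0.13 to 0.39). Dim signals are limited by the added constant.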
